A study of Mus musculus with 12 samples.

Results

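The genes described here are 10 that mouse neurons use while they are young and their axons are growing: Dcx, Stmn1, Stmn2, Tubb3, Tubb2b, Crmp1, Dpysl3, Dpysl5, Gap43 and St8sia2. They are 10 of the 18194 genes measured, taken by symbol from a list drawn up with earlier results of these data known. All probe sets annotated to them were read, 19 with 1 symbol alone and 1 shared between Tubb2b and Tubb2a-ps2, of 45101 on the array. The 12 spinal cord samples form 4 groups of 3 biological replicates, since Olig2cre/DA-Cat mice and their wild type littermates were each sampled at day 15 and day 4. The DA-Cat allele makes a dominant-active β-catenin, through which canonical Wnt signals reach their target genes. The Cre driver Olig2cre acts in the lineage of Olig2, which covers oligodendrocytes and, in the embryo, the progenitors of motor neurons. The groups include no animals with Olig2cre alone, and the labels do not say how many animals a replicate holds, so p-values measure the spread between these samples.

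The labels conflict about the days. They tag day 4 and day 15 as developmental stages, but the treatment protocol attached to every sample describes 0.5 μL injections of 1% lysolecithin, a detergent-like lipid that strips myelin, into the cords of adults of 8 to 10 weeks, taken unlesioned or 14 days after injection. What the days are counted from cannot be settled from the labels, and all comparisons of days below are between the labelled days. The labels name ventrolateral white matter as the source, although the titles say spinal cord. The mean level of 28 mature neuron genes lay between 11.14 and 11.41 in Olig2cre/DA-Cat and between 11.11 and 11.17 in wild type cords at day 15, and between 10.54 and 10.68 in Olig2cre/DA-Cat and between 10.58 and 10.62 in wild type cords at day 4. Signals of different probe sets are not on 1 scale, so how much neuronal RNA the samples held cannot be read from these levels.

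A growing axon extends when its growth cone, a motile tip of actin and membrane, pulls microtubules forward behind it. Dcx, the stathmins and the neuronal β-tubulins set how those microtubules are built and held, the collapsin response mediator proteins (Crmp1, Dpysl3, Dpysl5) pass guidance signals to the cytoskeleton, Gap43 sits at the growth cone membrane, and St8sia2 puts polysialic acid on the adhesion molecule NCAM, which lowers adhesion. In the cord these genes are known to be used strongly while tracts form and less as neurons mature. Levels below are log2 signals of 1 probe set per gene, differences are log2, and the sign ± marks an SD with a level (n = 3 arrays) and an SE with a difference. A gene passed the test at a limma p under 0.05 after Benjamini-Hochberg adjustment over the 18194 genes. Levels of different genes are not compared with each other.

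RefSeq promoter windows of GRCm38.p6, 250 bases before to 50 after a transcript's start, were listed for 5 of the 10 genes: Dcx, Crmp1, Dpysl5, Tubb3 and St8sia2. The 4 printed here belong to the 3 of those genes with the largest falls between the days and to Tubb3, the gene with the smallest fall. They are given 5′ to 3′ on the gene's strand, at chrX:143933170-143933469 (minus strand) for Dcx, chr7:74013633-74013932 (minus strand) for St8sia2, chr5:37241808-37242107 (plus strand) for Crmp1 and chr8:123411303-123411602 (plus strand) for Tubb3. Dcx and Crmp1 had 2 windows each, of which the more upstream is shown. Capitals in the windows mark every match, on either strand, to any of 6 motifs. These were the TATA box core TATAAA and the GC box GGGCGG. The TCF/LEF site was searched as CTTTGAT and the SOX core as ACAAAG. The E-boxes searched were CAGCTG and also the variant spelled CAGATG. Overlapping matches were counted separately, and CTTTGAT and ACAAAG share the letters CAAAG when read on opposite strands.
Dcx: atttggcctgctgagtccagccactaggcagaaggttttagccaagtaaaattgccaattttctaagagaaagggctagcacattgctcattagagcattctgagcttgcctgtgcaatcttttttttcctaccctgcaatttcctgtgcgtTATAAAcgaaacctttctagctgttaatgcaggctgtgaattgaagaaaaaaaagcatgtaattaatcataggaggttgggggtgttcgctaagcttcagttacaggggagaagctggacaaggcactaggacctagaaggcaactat
St8sia2: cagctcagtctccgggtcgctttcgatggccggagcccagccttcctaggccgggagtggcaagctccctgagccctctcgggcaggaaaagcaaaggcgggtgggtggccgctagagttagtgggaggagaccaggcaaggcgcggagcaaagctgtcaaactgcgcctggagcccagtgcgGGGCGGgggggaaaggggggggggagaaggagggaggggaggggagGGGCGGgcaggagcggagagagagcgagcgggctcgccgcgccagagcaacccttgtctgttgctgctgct
Crmp1: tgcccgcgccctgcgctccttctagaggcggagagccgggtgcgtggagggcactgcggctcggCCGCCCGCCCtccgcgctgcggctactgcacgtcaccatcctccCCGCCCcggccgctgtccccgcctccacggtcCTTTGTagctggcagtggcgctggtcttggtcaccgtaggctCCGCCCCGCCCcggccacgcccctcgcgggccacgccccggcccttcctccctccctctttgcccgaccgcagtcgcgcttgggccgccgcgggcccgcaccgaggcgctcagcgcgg
Tubb3: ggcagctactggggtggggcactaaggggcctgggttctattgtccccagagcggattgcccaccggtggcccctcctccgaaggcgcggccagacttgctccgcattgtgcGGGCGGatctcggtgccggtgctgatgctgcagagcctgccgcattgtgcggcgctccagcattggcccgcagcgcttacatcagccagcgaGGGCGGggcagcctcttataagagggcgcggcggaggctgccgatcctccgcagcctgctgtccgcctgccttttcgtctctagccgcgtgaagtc

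The windows differed in base composition. The Dcx window was 43.0% G and C with 3 CpG dinucleotides, and it held 1 TATAAA, a letter run present in 13.6% of the 32851 windows of the same length. St8sia2 was 68.7% G and C with 20 CpG and 2 GC boxes, Crmp1 77.0% with 41 CpG and 5 GC boxes, Tubb3 67.3% with 26 CpG and 2 GC boxes, and Dpysl5, not printed, 61.0% with 19 CpG and 1 GC box. A GC box was found in 35.7% of all windows, whose median was 52.7% G and C and 7 CpG. Crmp1 and Dpysl5 each held 1 ACAAAG, against 18.7% of all windows. None of the 5 windows held CTTTGAT (3.73% of all windows), CAGCTG (16.3%) or CAGATG (17.2%), which says only that these letters are not in these bases.

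All 10 genes were lower at day 15 than at day 4 in both genotypes. In Olig2cre/DA-Cat cords all 10 passed as lower, where 26.3% of all genes did, and in wild type cords all 10 passed as lower, where 23.6% of all genes did. Their median difference was -1.96 in Olig2cre/DA-Cat and -1.78 in wild type, against all-gene medians of 0.002 and -0.019. The 3 arrays of day 15 lay below the 3 of day 4 for each of the 10 genes in each genotype, a pattern seen in 30.1% of all genes in Olig2cre/DA-Cat and 28.1% in wild type. A fall of at least 2 log2 was seen in 5 of the 10 genes in Olig2cre/DA-Cat (0.308% of all genes) and in 3 in wild type (0.187%), and a fall of at least 1 log2 in 7 in each genotype (3.96% and 3.07% of all genes). These are bulk samples, so fewer cells of a type and less RNA per cell cannot be told apart.

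**Figure D1:**
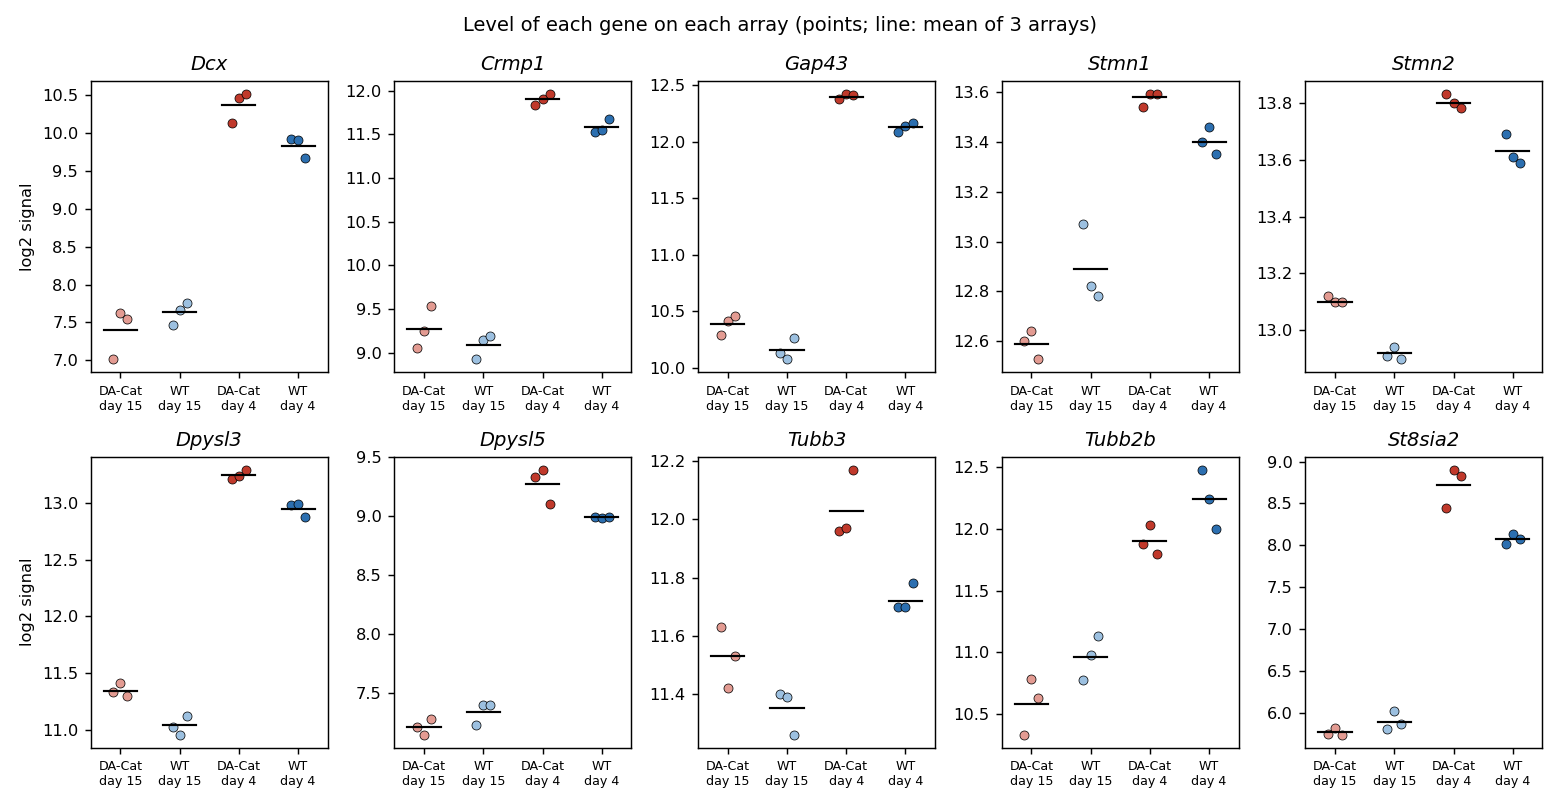
Level of each of the 10 genes on each array, as log2 signal (vertical axis, scaled per gene and not from 0), for Olig2cre/DA-Cat and wild type at day 15 and at day 4. Points are arrays and lines are means of 3; in every panel both day 15 groups lie below both day 4 groups.

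Among the microtubule genes, Dcx, the microtubule-binding protein of migrating newborn neurons, had the largest fall. Its level in Olig2cre/DA-Cat cords was 7.02, 7.63 and 7.55 at day 15, against 10.13, 10.46 and 10.51 at day 4. In wild type cords it was 7.47, 7.67 and 7.76 at day 15, against 9.92, 9.91 and 9.67 at day 4. The days were far apart in both genotypes, with the lowest day 15 value on the first Olig2cre/DA-Cat array. Dcx fell by 2.97 ± 0.16 in Olig2cre/DA-Cat, or 7.84-fold (adjusted p = 2.35e-08), and by 2.20 ± 0.16 in wild type, or 4.59-fold (adjusted p = 3.06e-07). Only 2 of the 18194 genes had a lower difference in Olig2cre/DA-Cat, where Dcx ranked 3, and it ranked 21 in wild type. With the mean of all Dcx probe sets, 2 of which were dim, in place of the brightest, the fall was smaller, -1.37 in Olig2cre/DA-Cat and -1.09 in wild type, and both passed.

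The stathmins and β-tubulins moved less. Stmn1, a tubulin-sequestering phosphoprotein, averaged 12.59 ± 0.06 at day 15 against 13.58 ± 0.03 at day 4 in Olig2cre/DA-Cat, and 12.89 ± 0.15 at day 15 against 13.40 ± 0.05 at day 4 in wild type. It fell by 0.98 ± 0.07 in Olig2cre/DA-Cat (adjusted p = 3.98e-07) and by 0.51 ± 0.07 in wild type (adjusted p = 0.000119). Its other probe set, 1448113_at, had -1.51 in Olig2cre/DA-Cat and -0.67 in wild type. Stmn2, a membrane-anchored stathmin of neurons and their growth cones, changed almost equally: it fell by 0.70 ± 0.05 in Olig2cre/DA-Cat (adjusted p = 3.29e-07) and by 0.71 ± 0.05 in wild type (adjusted p = 3.63e-07). Tubb3, the neuronal β-tubulin used widely as a neuron marker, had the smallest fall, 1.42-fold in Olig2cre/DA-Cat (-0.51 ± 0.08, adjusted p = 0.000126) and 1.29-fold in wild type (-0.37 ± 0.08, adjusted p = 0.00142). Tubb2b, a β-tubulin of developing neurons and glia, averaged 10.58 ± 0.23 at day 15 against 11.90 ± 0.12 at day 4 in Olig2cre/DA-Cat, and 10.96 ± 0.18 against 12.24 ± 0.24 in wild type. That was a fall of 1.33 ± 0.14 in Olig2cre/DA-Cat (adjusted p = 6.86e-06) and of 1.28 ± 0.14 in wild type (adjusted p = 1.09e-05).

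The 3 collapsin response mediator genes fell together. Crmp1 read 9.05, 9.25 and 9.53 at day 15 against 11.84, 11.91 and 11.96 at day 4 in Olig2cre/DA-Cat, and 8.93, 9.15 and 9.19 at day 15 against 11.53, 11.55 and 11.68 at day 4 in wild type. It was 6.19-fold lower at day 15 in Olig2cre/DA-Cat (-2.63 ± 0.11, adjusted p = 4.14e-09) and 5.63-fold lower in wild type (-2.49 ± 0.11, adjusted p = 1.24e-08), ranks 12 and 11 from the bottom of all genes. Dpysl3, which encodes CRMP4, changed by nearly the same amount in each genotype, -1.90 ± 0.06 in Olig2cre/DA-Cat (adjusted p = 7.48e-10) and -1.91 ± 0.06 in wild type (adjusted p = 2.95e-09). Of its other probe sets, 1415877_at had -2.15 in Olig2cre/DA-Cat and -2.25 in wild type, and the dimmer 1438789_s_at had -0.76 and -0.71. Dpysl5, which encodes CRMP5, fell by 2.06 ± 0.08 in Olig2cre/DA-Cat (adjusted p = 2.38e-09) and by 1.64 ± 0.08 in wild type (adjusted p = 2.27e-08). With the mean of its probe sets, Dpysl5 had -1.26 in Olig2cre/DA-Cat and -1.05 in wild type.

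Gap43, the growth cone phosphoprotein, averaged 10.39 ± 0.09 at day 15 against 12.40 ± 0.02 at day 4 in Olig2cre/DA-Cat, and 10.16 ± 0.09 at day 15 against 12.13 ± 0.04 at day 4 in wild type. It was 4.05-fold lower in Olig2cre/DA-Cat (-2.02 ± 0.07, adjusted p = 7.48e-10) and 3.93-fold lower in wild type (-1.97 ± 0.07, adjusted p = 2.95e-09). St8sia2, the polysialyltransferase, stood at 5.75, 5.82 and 5.74 at day 15 against 8.44, 8.90 and 8.83 at day 4 in Olig2cre/DA-Cat, and at 5.81, 6.02 and 5.86 against 8.02, 8.14 and 8.08 in wild type. The days did not overlap in either genotype. The gene was 7.74-fold lower at day 15 in Olig2cre/DA-Cat (-2.95 ± 0.10, adjusted p = 1.43e-09, rank 5 from the bottom) and 4.54-fold lower in wild type (-2.18 ± 0.10, adjusted p = 2.2e-08, rank 24). Its other probe set, 1449843_at, fell less, with -1.19 ± 0.14 in Olig2cre/DA-Cat and -0.85 ± 0.14 in wild type. The day 15 values printed for St8sia2 lay below the median signals of the arrays (6.14 to 6.19).

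**Figure D2:**
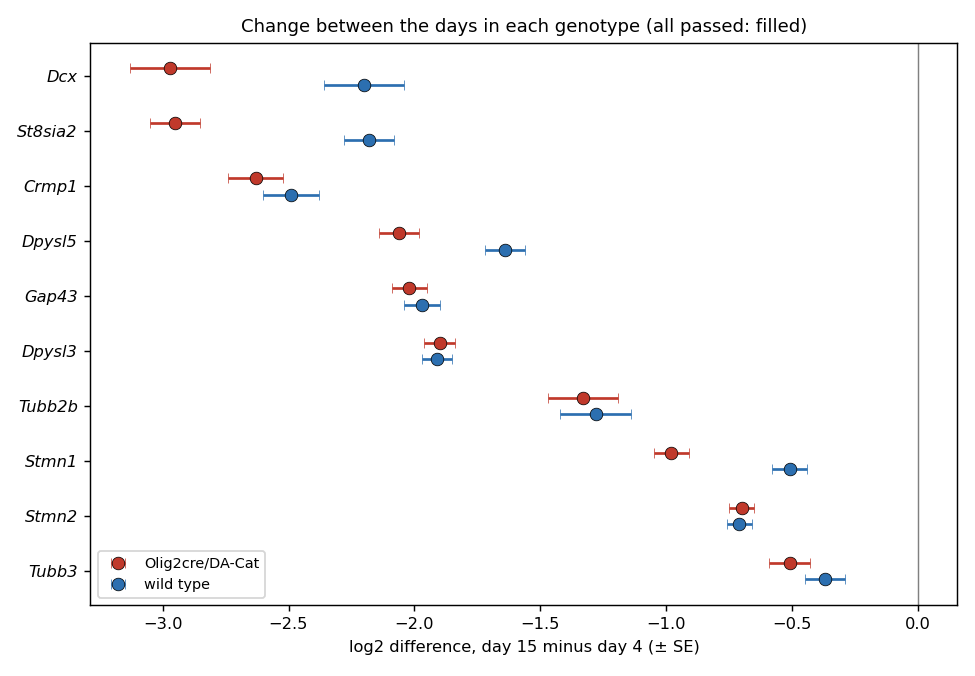
Log2 difference of each gene, day 15 minus day 4 (horizontal axis), in Olig2cre/DA-Cat (red) and wild type (blue), with SE bars from limma on 12 arrays. All 20 points are below 0; Dcx and St8sia2 lie furthest from it in Olig2cre/DA-Cat, and Tubb3 nearest in both genotypes.

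At day 4, 9 of the 10 genes had all 3 Olig2cre/DA-Cat values above all 3 wild type values, where 18.8% of all genes did. Of the 10, 4 passed as higher (St8sia2, Dpysl3, Gap43 and Tubb3), against 1.3% of all genes, and 0 passed as lower (1.81% of all genes). With the replicate number as a block within a day, only 1 of the 10 passed, St8sia2. No gene had all values below the wild type ones, as 10.3% of all genes had. The median difference was 0.29, against 0.029 for all genes. All 10 genes had an unadjusted p under 0.05, as had 20.6% of all genes.

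St8sia2 had the largest of them, with 8.44, 8.90 and 8.83 in Olig2cre/DA-Cat against 8.02, 8.14 and 8.08 in wild type. The groups did not overlap, and the lowest Olig2cre/DA-Cat value was the first replicate. It was 1.56-fold higher in Olig2cre/DA-Cat (0.65 ± 0.10, adjusted p = 0.00535), and it passed in all 23 alternative settings that kept the gene, with adjusted p between 0.000192 and 0.0487. Those settings include reading a gene from its probe set with the smallest p. The dimmer St8sia2 probe set, 1449843_at, did not pass (0.23 ± 0.14, adjusted p = 0.422 over probe sets). Dpysl3 read 13.21, 13.24 and 13.29 in Olig2cre/DA-Cat against 12.98, 12.99 and 12.88 in wild type, a difference of 0.30 ± 0.06 (adjusted p = 0.0239). Without 1 array its adjusted p was 0.0864 (Olig2cre/DA-Cat replicate 2 of day 4), 0.114 (replicate 3), 0.0671, 0.0574 or 0.0529 (wild type replicates 1, 2 and 3 of day 4).

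Gap43 read 12.38, 12.42 and 12.41 in Olig2cre/DA-Cat against 12.09, 12.14 and 12.17 in wild type, 0.27 ± 0.07 higher (adjusted p = 0.0466). Tubb3 read 11.96, 11.97 and 12.17 in Olig2cre/DA-Cat against 11.70, 11.70 and 11.78 in wild type, 0.31 ± 0.08 higher (adjusted p = 0.0482). Both sat close to the threshold with groups that did not overlap. Gap43 missed it without any 1 of the 6 arrays of day 4 (adjusted p 0.0806, 0.152 and 0.150 without the Olig2cre/DA-Cat replicates, 0.167, 0.129 and 0.0542 without the wild type ones), and without the first or second wild type array of day 15 (0.0642 and 0.0556). Tubb3 missed it without any 1 of the same 6 (0.0626, 0.0982 and 0.192 without the Olig2cre/DA-Cat replicates, 0.161, 0.149 and 0.0551 without the wild type ones), without the third Olig2cre/DA-Cat array of day 15 (0.062) and without the first or second wild type array of day 15 (0.0637 and 0.0674).

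The other 6 genes did not pass at day 4. Dcx read 10.13, 10.46 and 10.51 in Olig2cre/DA-Cat against 9.92, 9.91 and 9.67 in wild type, with a difference of 0.53 ± 0.16 (adjusted p = 0.0836) and no overlap. Differences of Crmp1 (0.32 ± 0.11, adjusted p = 0.129), Dpysl5 (0.29 ± 0.08, adjusted p = 0.0736), Stmn2 (0.17 ± 0.05, adjusted p = 0.0917) and Stmn1 (0.17 ± 0.07, adjusted p = 0.21) were also positive, with groups that did not overlap. Tubb2b alone had a negative difference, -0.34 ± 0.14 (adjusted p = 0.197), with 11.88, 12.03 and 11.80 in Olig2cre/DA-Cat against 12.48, 12.24 and 12.00 in wild type, and these overlapped.

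Marker genes of some other cell types also differed with genotype at day 4. Of 17 myelin and mature oligodendrocyte genes, 16 passed as lower (median -2.18), and the mean level of that list was 8.18 to 8.34 in Olig2cre/DA-Cat against 10.22 to 10.42 in wild type. Of 14 oligodendrocyte precursor genes 6 passed as lower (mean level 9.12 to 9.15 in Olig2cre/DA-Cat against 9.51 to 9.52 in wild type). Of 28 mature neuron genes 0 passed in either direction in limma (median 0.03, mean level 10.54 to 10.68 in Olig2cre/DA-Cat against 10.58 to 10.62 in wild type), and of 19 cell cycle genes 0 passed (median 0.10). Only 1.3% of all genes passed as higher and 1.81% as lower at day 4, so 0 in lists this short is near the all-gene share. Of 14 astrocyte genes 2 passed as lower, S100b (-0.64 ± 0.11, adjusted p = 0.00601) and Gfap (-0.41 ± 0.10, adjusted p = 0.0418). Of 12 meninges and fibroblast genes 0 passed, and 11 had a positive difference (median 0.26), with a mean level of 9.49 to 9.80 in Olig2cre/DA-Cat and 9.13 to 9.68 in wild type. The mean level of 16 skeletal muscle genes ranged from 5.64 to 8.55 in Olig2cre/DA-Cat and from 5.50 to 7.86 in wild type arrays. With their level as a covariate 2 of the 10 genes passed at day 4. Gap43 (0.27, adjusted p = 0.0683) and Tubb3 (0.30, adjusted p = 0.0685) then missed the threshold, with differences of 0.27 and 0.31 without the covariate. The part of these other genes in the differences at day 4 was not tested beyond that covariate.

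At day 15 only Dpysl3 of the 10 genes passed as higher, against 0.616% of all genes, and 0 passed as lower (2.31% of all genes). It read 11.33, 11.41 and 11.30 in Olig2cre/DA-Cat against 11.03, 10.96 and 11.12 in wild type, 0.30 ± 0.06 higher (adjusted p = 0.019) with no overlap. Its adjusted p was 0.0751 without the first wild type array of day 15 and 0.0838 without the second. With the replicate number as a block within a day it was 0.0888, and 0 of the 10 genes passed. In 4 genes all Olig2cre/DA-Cat values were above the wild type ones (10.6% of all genes): Dpysl3, Gap43, Stmn2 and Tubb3. Stmn1 was the 1 gene with all values below them (9.69% of all genes). The median difference was 0.03, against 0.017 for all genes.

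Among the 9 that did not pass, Stmn1 came nearest, with 12.60, 12.64 and 12.53 in Olig2cre/DA-Cat against 13.07, 12.82 and 12.78 in wild type, a difference of -0.30 ± 0.07 (adjusted p = 0.0529). It passed in 8 of 24 alternatives, among them without the third wild type array of day 15 (-0.35, adjusted p = 0.0398). Stmn2 differed by 0.19 ± 0.05 (adjusted p = 0.079), Gap43 by 0.23 ± 0.07 (adjusted p = 0.0931) and Tubb3 by 0.18 ± 0.08 (adjusted p = 0.257). Dcx (-0.24), Crmp1 (0.18), Dpysl5 (-0.13), Tubb2b (-0.38) and St8sia2 (-0.12) had groups that overlapped and adjusted p between 0.189 and 0.6. Myelin genes were still lower at day 15, 13 of 17 (mean level 11.34 to 11.68 in Olig2cre/DA-Cat against 12.10 to 12.17 in wild type). Of 28 mature neuron genes, 27 had a positive difference (median 0.14, against 0.017 for all genes), and 1 passed as higher, Syp (0.29 ± 0.06, adjusted p = 0.0268). Pvalb stood in both the mature neuron list and the skeletal muscle list. All 12 meninges and fibroblast genes had a positive difference (median 0.56), and 0 passed. The part of these other genes in the day 15 differences was not tested. The mean level of skeletal muscle genes was 10.87, 5.58 and 8.77 in Olig2cre/DA-Cat against 6.65, 5.44 and 7.73 in wild type, and with their level as a covariate 0 of the 10 genes passed (Dpysl3 0.30, adjusted p = 0.0626).

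**Figure D3:**
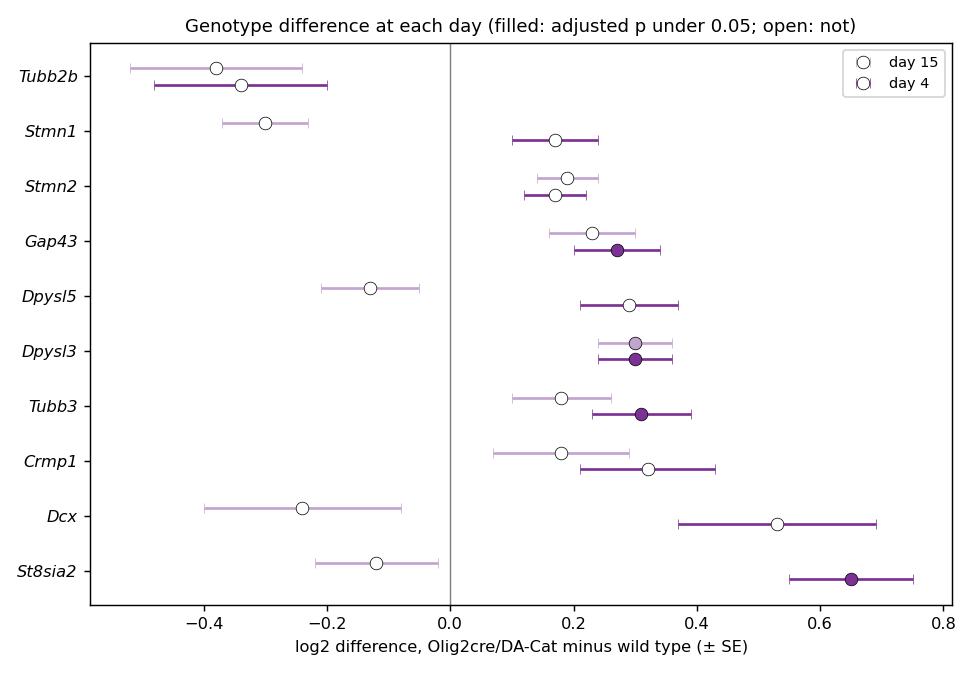
Log2 difference of each gene, Olig2cre/DA-Cat minus wild type (horizontal axis), at day 15 (light) and at day 4 (dark), with SE bars from limma on 12 arrays; filled points passed. Only Tubb2b is below 0 at day 4, and 5 genes are below 0 at day 15.

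Whether the genotype difference itself changed between the days was tested as an interaction, day 15 minus day 4. None of the 10 genes passed in limma, where 0.352% of all genes did, and 4 had an unadjusted p under 0.05 (10.1% of all genes): St8sia2, Stmn1, Dpysl5 and Dcx. The genotype difference of St8sia2 was -0.12 at day 15 and 0.65 at day 4, a change of -0.77 with a 95% interval of -1.09 to -0.45 (adjusted p = 0.0571). All its day 15 values (5.74 to 6.02) lay below the median signals of the arrays (6.14 to 6.19). What so low a signal does to the day 15 difference was not tested. Dcx changed by the same -0.77 with a wider interval, -1.25 to -0.30 (adjusted p = 0.241). Stmn1 stood at -0.48 (-0.70 to -0.25, adjusted p = 0.0935) and Dpysl5 at -0.42 (-0.66 to -0.17, adjusted p = 0.206). The St8sia2 interaction passed in 5 of 22 alternative settings and did not in 17, with adjusted p between 0.00255 and 0.22. The smallest came without the first Olig2cre/DA-Cat array of day 4 (-0.91), which held the lowest St8sia2 value of its group. The intervals of the other 6 genes held 0. They were -0.24 to 0.16 for Gap43, -0.18 to 0.20 for Dpysl3, -0.14 to 0.18 for Stmn2, -0.37 to 0.10 for Tubb3, -0.47 to 0.20 for Crmp1 and -0.48 to 0.39 for Tubb2b. The genotype and day comparisons use the same arrays, so a high day 4 group in Olig2cre/DA-Cat enters both the larger day 4 difference and the larger fall.

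Where a gene had several probe sets, they mostly pointed the same way with different reach. Each of the 19 probe sets with 1 symbol had a negative difference between the days in both genotypes, and 17 passed as lower in Olig2cre/DA-Cat (18.7% of all probe sets) and 18 in wild type (16.5%), with adjustment over all 45101. For Dcx, probe set 1418141_at fell by 2.17 ± 0.29 in Olig2cre/DA-Cat and by 1.74 ± 0.29 in wild type, less than 1418139_at, which stands for the gene above. Its other probe sets, 1418140_at and 1448974_at, were dim on all arrays (5.31 to 5.89 and 4.86 to 5.18), and their differences between the days lay between -0.29 and -0.13. The Stmn2 probe set 1423281_at had -0.77 ± 0.07 in Olig2cre/DA-Cat and -0.82 ± 0.07 in wild type. The dim Dpysl5 probe set 1441246_s_at (4.01 to 4.87) had differences of -0.45 and -0.47.

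At day 15, 2 probe sets passed as higher in Olig2cre/DA-Cat (0.257% of all), both of Dpysl3, and 1 as lower (1.36%), Stmn1 1448113_at. The Dpysl3 probe set 1415877_at read 10.04, 10.05 and 10.06 in Olig2cre/DA-Cat against 9.43, 9.53 and 9.79 in wild type, 0.47 ± 0.09 higher (adjusted p = 0.0204), and 1454613_at was 0.30 ± 0.07 higher (adjusted p = 0.0398). The remaining one, 1438789_s_at, had 0.26 ± 0.09 (adjusted p = 0.206). Stmn1 1448113_at read 8.88, 9.13 and 9.05 in Olig2cre/DA-Cat against 9.60, 9.44 and 9.76 in wild type, a difference of -0.58 ± 0.10 (adjusted p = 0.0101), with no overlap. At day 4, 2 probe sets passed as higher (0.415% of all), St8sia2 1420377_at (0.65, adjusted p = 0.00774) and Dpysl3 1454613_at (0.30, adjusted p = 0.0485), and 0 as lower (1.08%). Of the interactions, 1 passed, again Stmn1 1448113_at (-0.84 ± 0.14, adjusted p = 0.0276), where 0.0843% of all probe sets passed as lower. The second St8sia2 probe set, 1449843_at, had 0.23 ± 0.14 at day 4 with overlapping groups (adjusted p = 0.422).

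β-tubulin genes are near-copies of each other, so the Tubb2b result is uncertain as to which transcript was read. Probe set 1449682_s_at, annotated to both Tubb2b and Tubb2a-ps2, read 12.18, 12.48 and 12.36 in Olig2cre/DA-Cat against 12.03, 11.92 and 12.00 in wild type at day 4, a difference of 0.36 ± 0.20 (adjusted p = 0.398). That has the opposite sign to the -0.34 of 1452679_at, the probe set annotated to Tubb2b alone. Both fell between the days, the shared one with differences of -2.52 in Olig2cre/DA-Cat and -2.24 in wild type.

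**Figure D4:**
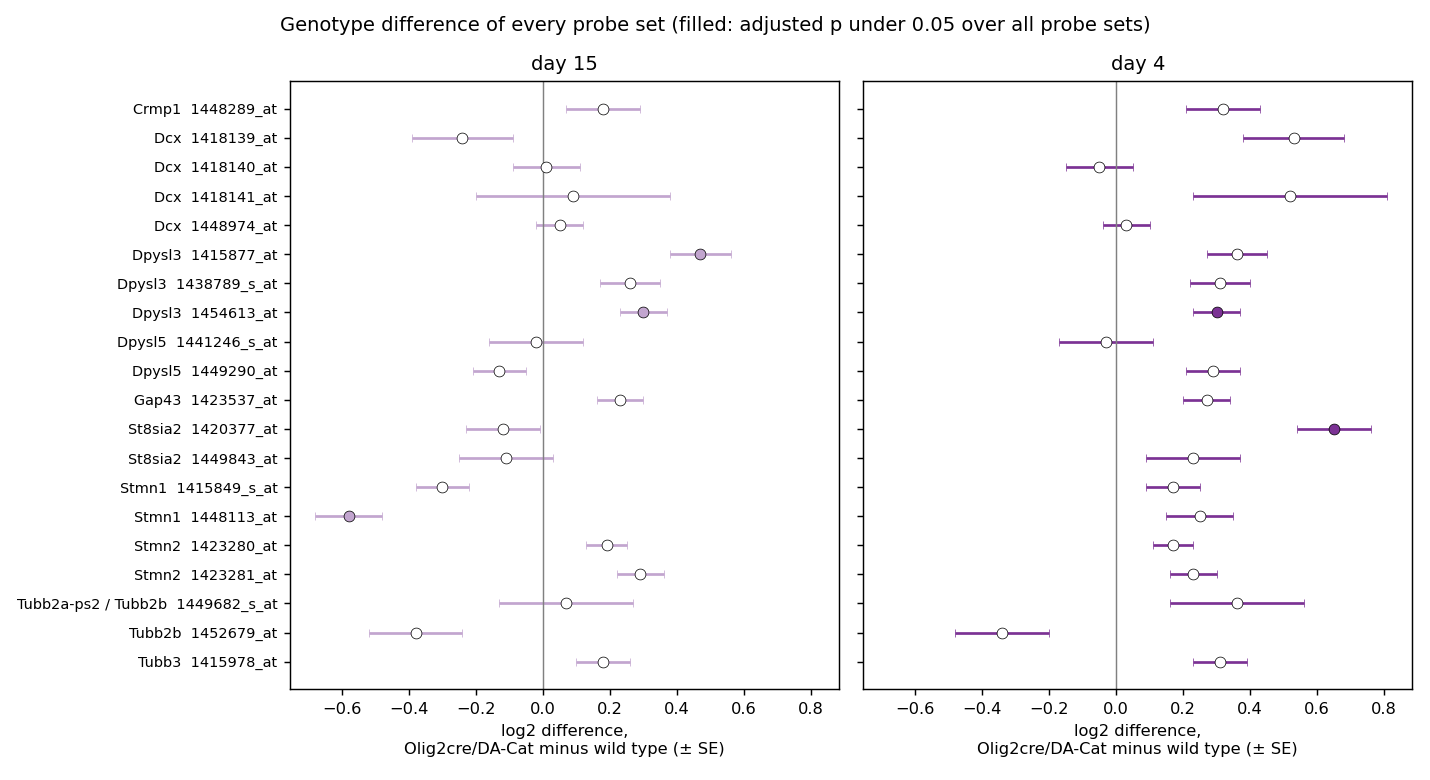
Log2 difference, Olig2cre/DA-Cat minus wild type (horizontal axis), of all 20 probe sets at day 15 (left) and day 4 (right), with SE bars from limma over 45101 probe sets; filled points passed. The 3 Dpysl3 probe sets are above 0 at both days, and the Tubb2b probe set and the one shared with Tubb2a-ps2 have opposite signs.

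Relatives of the 10 genes did not all follow them. Of 20 close relatives, 10 passed as lower and 4 as higher at day 15 in the Olig2cre/DA-Cat cords (median -0.29), and 12 as lower and 5 as higher in wild type (median -0.29). Of all genes, 26.3% passed as lower and 21.8% as higher in Olig2cre/DA-Cat, and 23.6% and 21.3% in wild type. The relatives passing as higher were near those shares, which also apply to the lists below. For genotype, 1.3% of all genes passed as higher and 1.81% as lower at day 4, and 0.616% and 2.31% at day 15. Dpysl4, another collapsin response mediator gene, passed as lower at day 15, with -1.60 in Olig2cre/DA-Cat and -1.50 in wild type (adjusted p = 6.74e-07 and 1.49e-06), whereas Dpysl2, the family member also kept in mature neurons, had -0.17 (adjusted p = 0.074) and -0.33 (adjusted p = 0.00239). The doublecortin-like kinases Dclk1 (-0.89 and -0.81) and Dclk2 (-0.91 and -0.74) passed as lower in both genotypes, whereas Dclk3 had 0.06 in each (adjusted p = 0.703 and 0.749). Of the stathmins, Stmn3 had -0.13 (adjusted p = 0.0885) in Olig2cre/DA-Cat and -0.21 (adjusted p = 0.01) in wild type.

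The β-tubulin family split. Tubb5 (-0.99 in Olig2cre/DA-Cat and -0.90 in wild type), Tubb2a (-0.51 and -0.55) and Tubb6 (-0.63 and -0.62) passed as lower at day 15, while Tubb4a (1.40 and 0.86) and Tubb4b (0.38 and 0.28) passed as higher. Tubb1 (-0.09 and 0.12) passed in neither genotype. Tubb4a, a β-tubulin known from oligodendrocytes and neurons, was also lower in Olig2cre/DA-Cat at day 4 (-0.85 ± 0.11, adjusted p = 0.00127), with 10.82, 10.85 and 10.78 against 11.72, 11.58 and 11.69 in wild type. Dclk2 was the 1 relative that passed as higher at day 4 (0.32 ± 0.08, adjusted p = 0.0475).

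The carrier of polysialic acid and another enzyme that makes it were lower at day 15 too. Ncam1, which encodes NCAM, the main carrier, read 10.26, 10.36 and 10.46 at day 15 against 12.09, 12.26 and 12.29 at day 4 in Olig2cre/DA-Cat, and 10.06, 10.25 and 10.25 against 11.92, 11.95 and 11.83 in wild type. The differences between the days were -1.85 ± 0.08 in Olig2cre/DA-Cat and -1.71 ± 0.08 in wild type (adjusted p = 5.27e-09 and 1.67e-08). St8sia4, the other polysialyltransferase of NCAM, passed as lower with -0.96 ± 0.07 in Olig2cre/DA-Cat and -0.76 ± 0.07 in wild type. Sialyltransferases of other substrates went both ways: St8sia6 passed as lower (-0.86 and -0.75), and St8sia5 (0.61 and 0.64) and St8sia1 (0.28 and 0.23) as higher. St8sia3 had -0.16 in Olig2cre/DA-Cat (adjusted p = 0.124) and -0.24 in wild type (adjusted p = 0.0294). At day 4 Ncam1 had 0.31 ± 0.08 (adjusted p = 0.0544) and St8sia4 0.19 ± 0.07 (adjusted p = 0.148), each with all Olig2cre/DA-Cat values above the wild type ones.

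Of 30 growth cone and axon extension genes, 18 passed as lower at day 15 in each genotype, with 4 passing as higher in Olig2cre/DA-Cat and 5 in wild type (medians -0.44 and -0.36). Gprin1, a growth cone protein, fell by 1.96 ± 0.09 in Olig2cre/DA-Cat and by 1.66 ± 0.09 in wild type, and the actin-binding Dbn1 fell by 1.16 ± 0.05 and by 0.98 ± 0.05. Basp1, a membrane protein of the same kind as Gap43, fell by 1.08 ± 0.06 and by 1.03 ± 0.06. Dbn1 (0.37 ± 0.05, adjusted p = 0.00214) and Gprin1 (0.45 ± 0.09, adjusted p = 0.0206) were the 2 of the 30 that passed at day 4, both higher in Olig2cre/DA-Cat. At day 15, 2 passed as lower, Shtn1 (-0.63 ± 0.11, adjusted p = 0.0072) and Fez1 (-0.30 ± 0.06, adjusted p = 0.0178).

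Regulators of newborn neurons were lower or did not pass: 22 of 29 passed as lower at day 15 in each genotype and 0 as higher in limma (medians -0.48 in Olig2cre/DA-Cat and -0.49 in wild type). The imprinted gene Nnat (-2.54 and -2.37) and the transcription factors Neurod6 (-2.48 and -2.56) and Ebf3 (-1.49 and -1.41) had the smallest p-values there. Myt1l, a neuronal transcription factor, was the 1 that passed for genotype at day 4 (0.25 ± 0.06, adjusted p = 0.0352). Of 16 axonal adhesion genes, 11 passed as lower and 2 as higher in Olig2cre/DA-Cat, and 10 as lower and 3 as higher in wild type (medians -0.57 and -0.47). L1cam, an adhesion molecule of growing axons, fell by 1.38 ± 0.07 and by 1.46 ± 0.07, and was the 1 of the 16 that passed as higher in Olig2cre/DA-Cat at day 15 (0.33 ± 0.07, adjusted p = 0.0262). Cntn3 (-0.34 ± 0.08, adjusted p = 0.0319) and Mcam (-0.42 ± 0.09, adjusted p = 0.0348) passed as lower there, and Nfasc (-1.46 ± 0.11, adjusted p = 6.86e-06) and Mcam (-0.46 ± 0.09, adjusted p = 0.0232) passed as lower at day 4, with 0 higher. Of 30 microtubule genes, 16 passed as lower in each genotype, with 9 higher in Olig2cre/DA-Cat and 6 in wild type (medians -0.23 and -0.19).

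Markers of dividing cells fell between the days as well: 18 of 19 cell cycle genes passed as lower in Olig2cre/DA-Cat and 17 in wild type (medians -1.39 and -1.31), and 10 and 11 of 12 neural progenitor and radial glia genes did (medians -0.92 and -0.73). Mature neuron genes went mostly the other way, with 17 of 28 passing as higher and 3 as lower in Olig2cre/DA-Cat, and 16 as higher and 6 as lower in wild type (medians 0.43 and 0.34), where 21.8% of all genes passed as higher in Olig2cre/DA-Cat and 21.3% in wild type. All 17 myelin genes passed as higher in each genotype, with a median of 3.14 in Olig2cre/DA-Cat and 1.48 in wild type. The part of dividing cells, of neurons and of myelin-forming cells in the falls of the 10 genes was not tested.

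**Figure D5:**
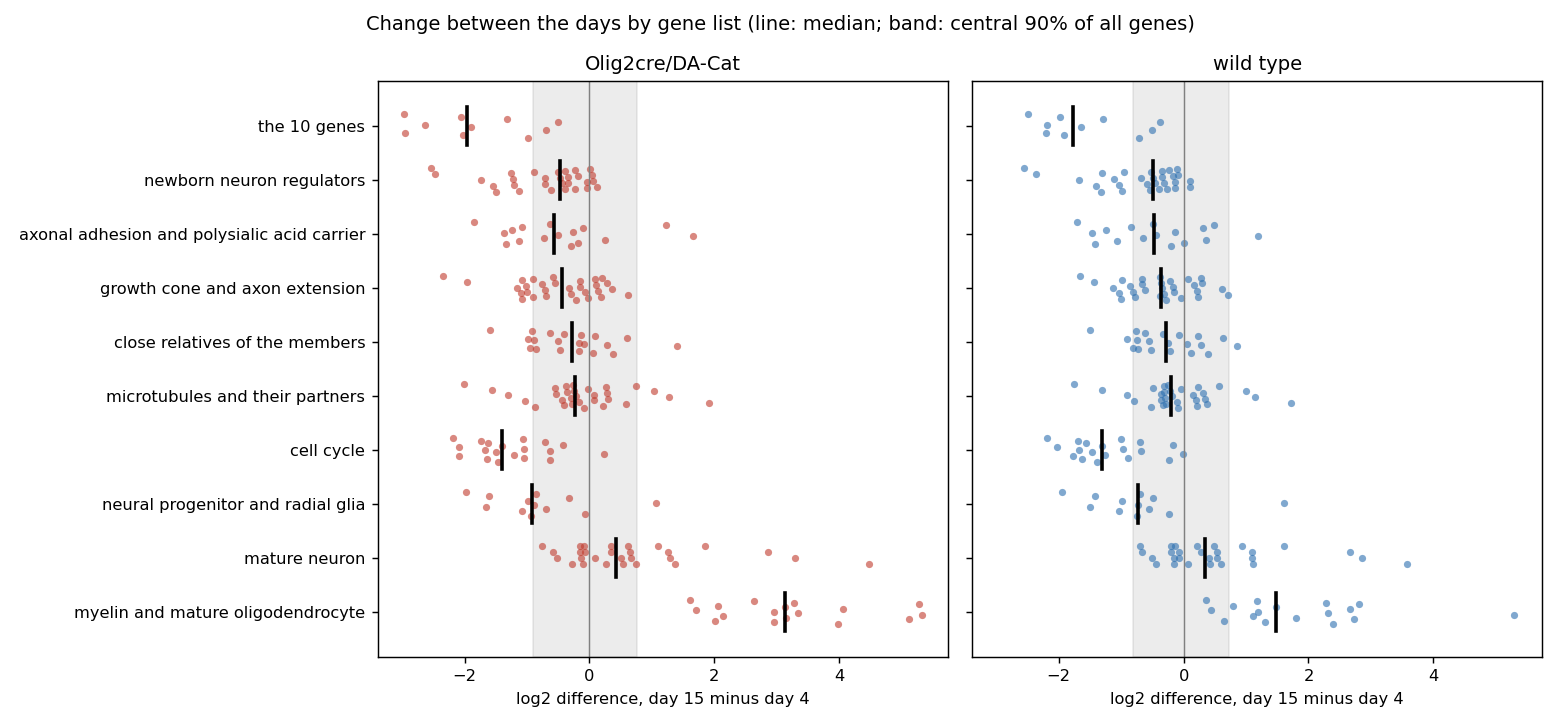
Log2 difference, day 15 minus day 4 (horizontal axis), of every measured gene of 10 lists in Olig2cre/DA-Cat (left) and wild type (right); points are genes, black lines list medians, and the grey band the central 90% of all genes, from -0.91 to 0.77 in Olig2cre/DA-Cat and from -0.81 to 0.73 in wild type. The 10 genes have the lowest median of the 10 lists and myelin genes the highest in both panels.

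Genes with a profile most like the mean standardised profile of the 10 genes over the 12 arrays were Kif21b (Pearson r 0.999), Nln and Zscan18 (0.998 each), Sema4g and Fat4 (0.997 each). Kif21b, a kinesin motor of neurons, changed between the days by -2.01 ± 0.06 in Olig2cre/DA-Cat and -1.75 ± 0.06 in wild type, and was 0.25 ± 0.06 higher in Olig2cre/DA-Cat at day 4 (adjusted p = 0.042). The genes most like Dcx alone were Asxl3 and St8sia4 (0.996 each), then Zfp647, Mettl9 and Zfp282 (0.995 each). These values describe 12 arrays that fall into 2 days far apart. The 10 genes and clone and predicted-gene names were passed over, and of the rest 1491 genes correlated over 0.95 with the mean profile and 1286 with Dcx.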

How the data were processed

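Total RNA of 12 mouse spinal cord samples was hybridised to one-colour Affymetrix 3' arrays with a biotin label, per the labels. The authors' deposited table holds 1 log2 signal per probe set and array. Array maxima of 14.71 to 15.05 fit a log2 scale, which no label states. The authors' background correction, probe summary and normalization are not given in the sources used here, and a shift shared by most genes cannot be seen in distributions this alike. Arrays have no read depth: their number limits the precision, with a median residual SD of 0.11 log2 over genes. Replicates of a group correlated with each other at 0.994 to 0.997.

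Probe sets were named from the platform annotation (34958 with 1 symbol, 932 with several, 9211 with none), and 34754 matched a RefSeq gene table by Entrez identifier with 0 symbols changed. Each of 18194 genes was read from its brightest probe set on average, and 9012 had a choice of more than 1. In R 4.3.3, limma 3.58.1 fitted the 4 group means to all 12 arrays (moderated by eBayes, with 8 residual and 3.96 prior degrees of freedom), two-sided, with Benjamini-Hochberg adjustment over genes at 0.05. The same fit was run over 45101 probe sets. On simulated arrays of 18194 genes it recovered, for the day 4 genotype comparison, 78% of changes of 0.5 log2 and 100% of changes of 1 log2, with 8 false calls.

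The 10 genes, the 17 other lists (316 entries, 299 measured, the other 17 not analysed here) and the tests were chosen with earlier results of these data known. All 10 genes are named in every comparison, with those of their probe sets that passed or differed from the rest. Other lists are given by counts, with up to 4 members of the smallest p and any relative of the same gene families. Likeness is given by the 5 highest Pearson correlations among genes outside the 10, with clone and predicted-gene names passed over. Alternatives changed the choice of probe sets, the normalization, the filter on dim genes, the spread model, array weights, the samples fitted, the replicate number as a block, the skeletal muscle level or Eif2s3y level as a covariate, and left out each array in turn. Promoter windows came from RefSeq (GRCm38.p6).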

Additional observations from a re-analysis of the deposited data

Results flagged for a closer look

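In 1 close relative of the 10 genes, 1 growth cone gene, 1 adhesion gene and 1 probe set of Stmn1, the genotype difference itself changed between the days by the interaction term of the limma fit. Stmn4, a stathmin, had an interaction of -0.79 ± 0.13 (adjusted p = 0.017): it read 11.37, 11.65 and 11.38 in Olig2cre/DA-Cat against 12.06, 12.22 and 11.93 in wild type at day 15, and 11.78, 11.89 and 11.93 against 11.69, 11.65 and 11.71 at day 4. It passed as lower between the days in Olig2cre/DA-Cat (-0.40) and as higher in wild type (0.39). Shtn1, a growth cone protein of axon formation, had -0.91 ± 0.15 (adjusted p = 0.0215), with means of 8.19 ± 0.19 in Olig2cre/DA-Cat against 8.82 ± 0.21 in wild type at day 15, and 10.54 ± 0.02 against 10.26 ± 0.08 at day 4. Nfasc, an adhesion molecule of nodes of Ranvier and of glia, had 1.17 ± 0.15 (adjusted p = 0.00439), since its genotype difference was -0.29 at day 15 and -1.46 at day 4. The Stmn1 probe set 1448113_at had -0.84 ± 0.14 (adjusted p = 0.0276 over probe sets), with a genotype difference of -0.58 at day 15 and 0.25 at day 4, whereas the brighter 1415849_s_at had -0.48 (adjusted p = 0.18 over probe sets).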

How the results depend on the processing

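The calls of lower levels at day 15 held over the settings: over 24 alternatives 9 or 10 of the 10 genes passed as lower in each genotype, with 9 only where the dimmest 50% of genes, St8sia2 among them, were left out. The sizes moved more: with the mean of probe sets Dcx had -1.37 in Olig2cre/DA-Cat and -1.09 in wild type, and Dpysl5 -1.26 and -1.05. St8sia2 ranged from -3.09 to -2.07 in Olig2cre/DA-Cat and from -2.24 to -1.52 in wild type over the settings. The genotype calls did depend on them. At day 4, 4 genes passed, against 2 with every probe set by itself, 8 with array weights, 2 with the skeletal muscle covariate and 1 to 5 with an array left out. With every probe set by itself, a gene was read from its probe set with the smallest p. At day 15, 1 gene passed, against 3 with the mean of probe sets, 2 with every probe set by itself, 2 with arrays centred on their median, 3 and 4 without the dimmest 30% and 50% of genes, 4 with trend and robust settings, 3 with array weights, 0 with only the arrays of the 2 groups, with the muscle covariate or with the Eif2s3y covariate, and 0 to 2 with an array left out. For the interaction, 0 passed, against 1 with the mean of probe sets, every probe set by itself, centred arrays, either filter on dim genes or array weights, 2 with trend and robust settings, and 0 to 1 with an array left out. With the replicate number as a block, 1 gene, St8sia2, passed at day 4 (Gap43, Dpysl3 and Tubb3 had adjusted p of 0.066, 0.0803 and 0.063), 0 at day 15 and 0 for the interaction; a block within a day cannot be fitted beside a change between days, so a block over all groups was added after seeing the data, and 10 passed in each genotype. Same-numbered samples of the 2 genotypes correlated in their deviations at 0.26, 0.30 and 0.03 at day 4 and at 0.17, 0.18 and 0.02 at day 15, so not every pair was over 0.1 and the samples were treated as sharing only a number, although 5 of 6 Olig2cre/DA-Cat arrays correlated best with their own number, a hint of pairing from the data. Of 1185 values of single genes, 1091 kept their sign and their side of the threshold, and 18 changed sign, all of them interactions near 0 that had not passed: Stmn2 (-0.03 with quantile normalization, -0.01 with centred arrays, -0.01 to 0.04 with an array left out), Dpysl3 (-0.02 with centred arrays, -0.06 with the Eif2s3y covariate, -0.03 to 0.05 with an array left out), Tubb2b (0.03 with array weights, 0.00 with the muscle covariate, -0.16 to 0.08 with an array left out) and Gap43 (-0.08 to 0.01 with an array left out). The cause of these moves was not tested. Of 2023 counts over the other lists, 1817 stayed within 1.5 times the reported count and 206 did not.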

Other observations

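Several partners of microtubules outside the 10 genes moved with genotype. Of 30 measured, 4 passed as higher in Olig2cre/DA-Cat at day 4, among them Mapt, which encodes tau (0.43 ± 0.07, adjusted p = 0.00795), and 2 as lower. The lower ones were Map7, a microtubule-associated protein that recruits kinesin (-0.96 ± 0.08, adjusted p = 2.96e-05), and Nde1, a dynein partner (-0.40 ± 0.06, adjusted p = 0.00212). Both were again lower in Olig2cre/DA-Cat at day 15 (-0.76 and -0.28), and both were higher at day 15 than at day 4 in each genotype, Map7 by 1.92 in Olig2cre/DA-Cat and 1.72 in wild type. Among the mature neuron genes, the potassium channel gene Kcna1 was higher at day 15 by 2.87 ± 0.11 in Olig2cre/DA-Cat and 2.67 ± 0.11 in wild type, and the sodium channel subunit gene Scn4b by 3.30 ± 0.19 and 2.86 ± 0.19, with genotype differences of -0.31 to 0.12 that did not pass at either day.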
